A study of Mus musculus with 12 samples.

Results

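The genes described here are 8 members of the mouse MHC class II pathway: Ciita, H2-Aa, H2-Ab1, H2-Eb1, Cd74, H2-DMa, H2-DMb1 and H2-DMb2. They were taken by their symbols from a table of 55376 genes, of which 11994 had enough counts to be tested, all 8 among them. MHC class II molecules are alpha and beta chain pairs on antigen-presenting cells that show peptides from endosomes to helper T cells. The invariant chain holds the peptide groove closed on the way to the endosome, and the DM molecule then exchanges its remnant for peptide. Transcription of the pathway runs through Ciita, a coactivator that does not bind DNA itself and is held at the promoters by the RFX, CREB and NF-Y factors on the X and Y boxes.

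RNA was sequenced from mouse bone marrow progenitors, chosen as positive for c-Kit and Sca-1 and negative for lineage markers and kept in RPMI with 20 ng/ml each of the cytokines IL-3 and IL-6 and with SCF at 100 ng/ml. There were 4 groups of 3 libraries: NUP98-NSD1 with shNizp1#2, NUP98-NSD1 with shNizp1#1, NUP98-NSD1 with the control shRNA (called the fusion libraries below), and the empty MSCV vector with the control shRNA. All cells had thus received a retroviral MSCV construct with geneticin selection and a pLKO.1-puro shRNA. NUP98-NSD1 is a leukaemia fusion of a nucleoporin and a histone methyltransferase, Nizp1 is a zinc finger protein that binds NSD1, and the series asks how Nizp1 bears on the programme of the fusion. The labels give neither the strain nor the age of the mice, and they do not say how many mice gave cells. The series speaks of 3 independent experiments and the libraries are numbered 1 to 3 in each group. Libraries with the same number deviated together from their group means, so a number is called an experiment below, which is an inference.

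Totals ran between 3586538 and 6842589 counts per library. A count of 0 therefore allows up to 3 counts, or 0.417 to 0.837 CPM (counts scaled to a common library size over the tested genes, with TMM factors), counting error only. Zkscan17, the gene of Nizp1, was at 27.0, 17.6 and 29.0 CPM with shNizp1#2 in experiments 3, 2 and 1 and at 30.4, 26.2 and 35.0 CPM with shNizp1#1, under all libraries with the control shRNA (49.4 to 68.2 CPM). Kit lay between 1930 and 3105 CPM in the 12 libraries and Ly6a, the gene of Sca-1, between 23.8 and 277 CPM. Markers of mast cells summed to 39397 to 63314 CPM, with Cpa3, a mast cell protease, at 19341 to 30645 CPM. In RNA from whole cultures, fewer cells of a type and less RNA per cell cannot be told apart.

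The promoters of the class II genes carry the boxes through which Ciita acts, and the matched windows are shown as a description. Whether the letters bear on how far a member moved was not tested. RefSeq promoter windows (GRCm38.p6) are given for 5 of the 8 members. No window was found for H2-Ab1 or Ciita. Cd74 was left out of the matching, so its absence does not mean that it lacks a window or the boxes. Each sequence runs from 120 to 21 bases before a RefSeq transcript start on the gene's own strand. Capitals mark GATTGG, the Y box (CCAAT on the other strand), and TGANG, the core of the CREB-binding part of the X box, where TGANG lies 10 to 30 bases before GATTGG.
H2-Aa: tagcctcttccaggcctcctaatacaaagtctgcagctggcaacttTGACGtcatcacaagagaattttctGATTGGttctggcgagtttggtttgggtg
H2-Eb1: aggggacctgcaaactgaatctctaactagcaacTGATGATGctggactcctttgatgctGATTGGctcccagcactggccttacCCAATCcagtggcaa
H2-DMb1: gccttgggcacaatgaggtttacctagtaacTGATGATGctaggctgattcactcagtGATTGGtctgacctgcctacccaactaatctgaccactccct
H2-DMb2: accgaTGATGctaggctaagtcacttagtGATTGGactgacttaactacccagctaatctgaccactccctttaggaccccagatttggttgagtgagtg
H2-DMa: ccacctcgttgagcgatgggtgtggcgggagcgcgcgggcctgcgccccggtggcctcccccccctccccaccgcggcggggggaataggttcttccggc
They lie at chr17:34287844-34287943 on the minus strand (H2-Aa), and on the plus strand at chr17:34305747-34305846 (H2-Eb1), chr17:34153071-34153170 (H2-DMb1), chr17:34145129-34145228 (H2-DMb2) and chr17:34122712-34122811 (H2-DMa). For H2-DMb1 and H2-DMb2 the RefSeq start lies inside the bounds that the count table gives the gene.

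H2-Aa, H2-Eb1, H2-DMb1 and H2-DMb2 held the pair within 250 bases of the start, with GATTGG first at -49, -60, -62 and -91. H2-Eb1 had TGATGATG, a run with overlapping TGANG matches, and a further Y box letter match on the other strand. H2-DMa held no pair in this window, nor at its second RefSeq start, where GATTGG stood at -199. Both starts lie near the beginning of a gene span of 34122832 to 34139101, and whether they are the promoters in use in these cells was not tested. Of 32851 RefSeq windows of 250 bases searched on both strands, 14.6% held GATTGG and 1.41% held the pair. The letters were chosen with these sequences in view, and a match is a description, not a measured binding site.

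H2-Ab1, the beta chain of the I-A molecule (chromosome 17, 34263209 to 34269419, plus strand), varied less than H2-Aa and H2-Eb1. It stood at 30.5, 90.4 and 39.6 CPM with shNizp1#2 in experiments 3, 2 and 1, the order used for every member below. It stood at 38.5, 90.1 and 50.9 CPM with shNizp1#1, at 31.4, 77.0 and 48.8 CPM in the fusion libraries and at 19.1, 34.3 and 39.2 CPM with the empty vector. Every library of experiment 3 lay under every library of experiment 1, though the nearest stood at 38.5 and 39.2 CPM.

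H2-Aa, the alpha chain that pairs with it (chromosome 17, 34282744 to 34287823, minus strand), spread far more widely. Its levels were 5.87, 105 and 16.3 CPM with shNizp1#2, 2.36, 60.8 and 15.2 CPM with shNizp1#1, 2.16, 69.9 and 6.57 CPM in the fusion libraries and 0.869, 24.9 and 4.41 CPM with the empty vector. Experiment 2 was highest in every group, and its lowest library lay above the highest library of the other experiments. H2-Eb1, the beta chain of the I-E molecule (chromosome 17, 34305867 to 34316674, plus strand), followed the same order. It was at 4.40, 60.4 and 11.4 CPM with shNizp1#2, at 1.39, 27.6 and 8.09 CPM with shNizp1#1, at 0.981, 39.9 and 5.69 CPM in the fusion libraries and at 0.217, 14.2 and 1.59 CPM with the empty vector.

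Cd74, the invariant chain (chromosome 18, 60803848 to 60812652, plus strand), had the highest CPM of the 8 in every library of experiment 2. It was at 13.5, 279 and 48.4 CPM with shNizp1#2 and at 7.92, 174 and 45.0 CPM with shNizp1#1. It was at 4.12, 192 and 21.9 CPM in the fusion libraries and at 5.21, 72.6 and 27.7 CPM with the empty vector. The experiments did not overlap for Cd74: 4.12 to 13.5 CPM in experiment 3, 72.6 to 279 CPM in experiment 2 and 21.9 to 48.4 CPM in experiment 1.

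H2-DMa, the alpha chain of the DM peptide exchanger (chromosome 17, 34122832 to 34139101, plus strand), stayed between 9.77 and 35.4 CPM. Its levels were 18.5, 35.4 and 14.0 CPM with shNizp1#2, 17.2, 28.2 and 12.1 CPM with shNizp1#1, 17.3, 19.9 and 12.0 CPM in the fusion libraries and 9.77, 12.4 and 10.9 CPM with the empty vector. The DM beta chains were much scarcer. H2-DMb1 (34153072 to 34160230) was at 1.03, 9.27 and 1.14 CPM with shNizp1#2, 0.555, 8.09 and 1.90 CPM with shNizp1#1, 0, 4.66 and 0.657 CPM in the fusion libraries and 0, 1.74 and 0 CPM with the empty vector. H2-DMb2 (34143307 to 34151555) was at 0.587, 17.3 and 1.47 CPM with shNizp1#2, 0.417, 7.81 and 1.43 CPM with shNizp1#1, 0, 6.90 and 1.31 CPM in the fusion libraries and 0, 3.73 and 0.353 CPM with the empty vector. Outside experiment 2 both beta chains stayed at a few counts per library, with 11 and 7 counts in all of experiment 3 and 18 and 23 in experiment 1. The beta chain genes are near copies of each other: 15.8% of the 75-base windows of H2-DMb1 also occur in H2-DMb2, so reads may have been lost or split there, and their separate levels are uncertain. For H2-DMa, 7.46% of windows are shared with its neighbour Brd2.

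Ciita, the coactivator (chromosome 16, 10480059 to 10528418, plus strand), was scarce, with 196 counts over the 12 libraries. It was at 3.23, 12.7 and 2.61 CPM with shNizp1#2, at 1.25, 3.07 and 0.714 CPM with shNizp1#1, at 2.35, 3.54 and 1.53 CPM in the fusion libraries and at 0.434, 1.99 and 0.882 CPM with the empty vector. The shNizp1#2 library was the highest of its experiment each time, while the shNizp1#1 library was lower than the fusion library each time. Exons of Ciita share 111 bases with those of Dexi on the opposite strand, and the strand setting of the counting is not given in the sources used here.

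**Figure D1:**
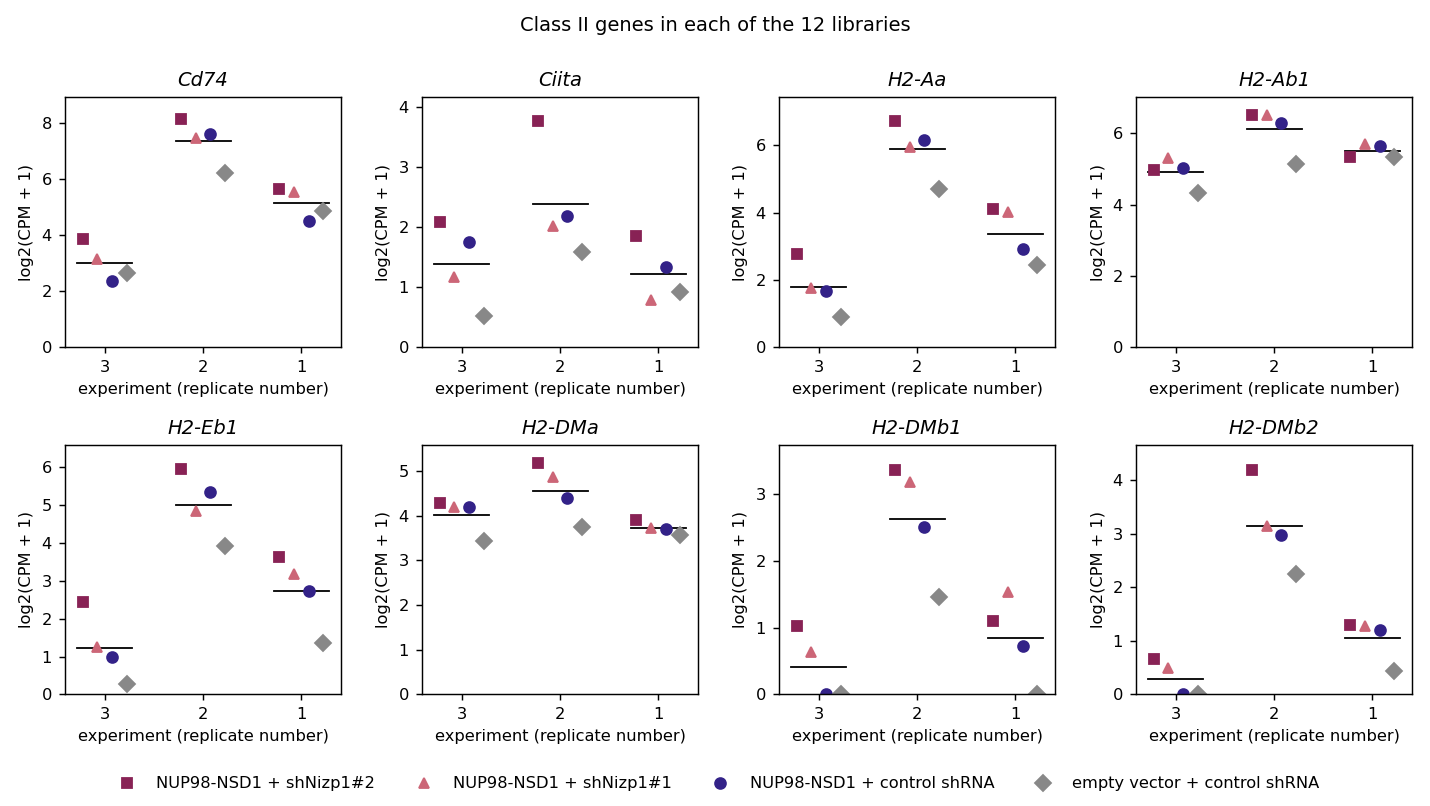
Levels of the 8 class II genes as log2(CPM + 1), 1 panel per gene, with experiments 3, 2 and 1 along the horizontal axis, symbols for the 4 groups and a bar at the mean of each experiment. Every gene but H2-Ab1 lies highest in experiment 2 in every group, and H2-Ab1 does so in all groups but the empty vector. H2-Ab1 and H2-DMa stay within a narrower band than the others.

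Per length, the levels can be compared between genes. Cd74 averaged 52.5 ± 63.9 RPKM (CPM per kilobase of exon, SD, n = 12) and H2-Ab1 40.6 ± 19.7 RPKM. H2-Ab1 ranked first of the 8 in 7 libraries and Cd74 in the other 5. Next came H2-Aa at 23.2 RPKM (0.770 to 92.9 RPKM), H2-Eb1 at 8.78 ± 11.3 RPKM and H2-DMa at 6.49 ± 2.86 RPKM. The scarcest were H2-DMb2 at 1.97 ± 2.92 RPKM, H2-DMb1 at 1.72 ± 2.28 RPKM and Ciita at 0.347 ± 0.396 RPKM. Apart from H2-DMa and H2-DMb2, neighbours in this order differ by less than the larger of their SDs over the 12 libraries. These SDs include the differences between experiments, which the genes of a library share. Within single libraries H2-Aa ranked from 2 to 4 of the 8, H2-Eb1 from 4 to 5, H2-DMa from 2 to 5 and H2-DMb2 from 6 to 8.

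The largest differences between libraries followed the experiment number. In a fit of all 12 libraries with group and number as terms (edgeR quasi-likelihood test, Benjamini-Hochberg adjusted p under 0.05), all 8 genes were lower in experiment 3 than in experiment 2, where 25.4% of all tested genes were called lower. Between experiments 3 and 1, 5 of the 8 were lower, Cd74, H2-Aa, H2-Ab1, H2-Eb1 and H2-DMb2, against 15.9% of tested genes. Experiment 2 exceeded experiment 1 for all 8, against 13.4% of tested genes. The counts of H2-DMb1 and H2-DMb2 reached the low-count filter only through experiment 2, so these genes had to be high there, and the counts over the 8 are a description.

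H2-Aa had a log2 fold change of -4.55 (SE 0.23, edgeR adjusted p = 8.23e-09) for experiment 3 over 2, of -1.92 (SE 0.26, adjusted p = 1.51e-04) for 3 over 1 and of 2.63 (SE 0.19, adjusted p = 1.91e-06) for 2 over 1. Cd74 showed -4.53 (SE 0.31, adjusted p = 1.54e-05), -2.26 (SE 0.32, adjusted p = 0.00190) and 2.27 (SE 0.26, adjusted p = 8.73e-04) in the same contrasts. For H2-Eb1 they were -4.38 (SE 0.27), -1.91 (SE 0.31) and 2.47 (SE 0.23), with edgeR adjusted p at most 6.31e-04. H2-Ab1 moved by much less, at -1.27 (SE 0.17, adjusted p = 1.12e-04), -0.62 (SE 0.17, adjusted p = 0.0217) and 0.65 (SE 0.17, adjusted p = 0.0150).

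Among the DM genes, H2-DMa differed by -0.58 (SE 0.18, edgeR adjusted p = 0.0136) for experiment 3 over 2 and by 0.90 (SE 0.18, adjusted p = 0.00326) for 2 over 1, and it was not called for 3 over 1 (0.32, adjusted p = 0.222). The beta chains gave -3.86 (SE 0.52, H2-DMb1) and -4.93 (SE 0.47, H2-DMb2) for experiment 3 over 2, and 2.78 (SE 0.48) and 2.95 (SE 0.39) for 2 over 1. These values are a description and no test, since both genes passed the low-count filter only through experiment 2. For 3 over 1, H2-DMb2 was called at -1.99 (SE 0.61, adjusted p = 0.0275) on 7 against 23 counts, and H2-DMb1 was not (-1.08, adjusted p = 0.250). Ciita followed experiment 2 alone, at -1.45 (SE 0.35, adjusted p = 0.00413) for 3 over 2 and 1.77 (SE 0.38, adjusted p = 0.00435) for 2 over 1, with 0.32 (SE 0.41, adjusted p = 0.606) for 3 over 1.

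Both Ciita calls rested on shNizp1#2 of experiment 2: without that library the log2 fold changes were -1.14 (edgeR adjusted p = 0.0612) and 1.44 (adjusted p = 0.0577). The H2-DMa call for 3 over 2 was also lost without it (-0.44, adjusted p = 0.0869) and held in 5 of 8 single omissions. The smaller calls for 3 over 1 held in 3 of 8 omissions for H2-Ab1 and 4 of 8 for H2-DMb2, and the H2-Ab1 call for 2 over 1 in 5 of 8. With the number as the only term, Cd74 alone was called for 3 over 1 (-2.17, edgeR adjusted p = 0.0115). The share of all tested genes called with that term alone is not given here. The levels of the experiments did not overlap for 5 of the 8 genes between experiments 3 and 2, where this held in the same direction for 19.8% of tested genes. For 3 against 1 it held for Cd74 and H2-Ab1 (13.8% of tested genes), and for 2 against 1 for Cd74, H2-Aa, H2-Eb1 and H2-DMb2 (12.2%). The 5 genes for 3 against 2 were Cd74, H2-Aa, H2-Eb1, H2-DMb1 and H2-DMb2. Of these, H2-DMb1 and H2-DMb2 had to be high in experiment 2 to pass the filter. The counts that include them are therefore a description and are not read against the shares.

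**Figure D2:**
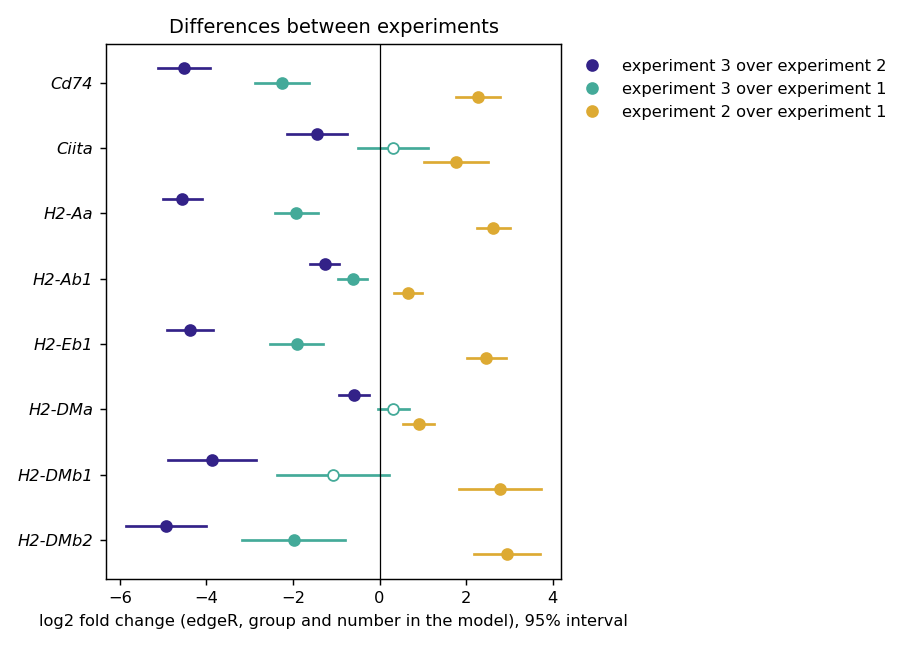
Log2 fold changes of the 8 genes between experiments from edgeR with group and number in the model, with bars for the 95% interval. The intervals use normal quantiles and are narrower than the edgeR test implies. Filled points have an adjusted p under 0.05 and open points do not. Cd74, H2-Aa, H2-Eb1 and H2-DMb2 lie beyond -4 for experiment 3 over 2, while H2-Ab1 and H2-DMa lie at -1.27 and -0.58. The points of H2-DMb1 and H2-DMb2 in contrasts with experiment 2 are a description, since these genes passed the filter only through it.

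Experiment number accounted for 90.1% of the variance of Cd74 in log2(CPM + 1), 85.0% for H2-Aa, 79.5% for H2-Eb1 and 60.4% for H2-Ab1. The median over all tested genes was 48.7%. The shares of H2-DMb2 (86.0%) and H2-DMb1 (72.0%) are not set against that median, since these genes passed the filter only through experiment 2. H2-DMa and Ciita divided differently, with 44.7% and 39.9% for the number and 40.7% and 51.1% for the group, where the median gene had 20.6% for the group.

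Because H2-Aa and H2-Ab1 encode the chains of a single molecule, their levels per length were set against each other. The ratio of H2-Aa to H2-Ab1 was 0.0488 to 0.207 in experiment 3, 0.725 to 1.25 in experiment 2 and 0.121 to 0.442 in experiment 1. Thus the alpha chain ranged from a small part of the beta chain level in experiment 3 to about its level in experiment 2. An exact two-sided permutation test over libraries (4 against 4) gave p = 0.0286, the smallest it can give, for 3 over 2 and for 2 over 1 (adjusted over 9 such tests, p = 0.0367). For 3 over 1 it gave p = 0.0857 (adjusted p = 0.0964, exact permutation). The test shuffled libraries freely, although each experiment holds 1 library of each group. A shuffle within the groups, which was not run, could not reach a p under 0.05 with 4 libraries per experiment.

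Cd74 relative to H2-Ab1 was 0.112 to 0.379 in experiment 3, 1.65 to 2.64 in experiment 2 and 0.384 to 1.05 in experiment 1, with exact permutation p = 0.0286 for each pair of experiments (adjusted p = 0.0367). H2-Eb1 relative to H2-Ab1 was 0.00825 to 0.105, 0.223 to 0.485 and 0.0294 to 0.209, with the same p for both contrasts with experiment 2 and p = 0.114 (exact permutation) for 3 over 1. These ratios were chosen after the levels had been seen. With 1 library left out in turn, the exact permutation p for 3 over 2 stayed at 0.0286 in 8 of 8 omissions for H2-Aa and for Cd74 but in only 4 of 8 for H2-Eb1, reaching 0.0571 in the rest. For 2 over 1 it stayed under 0.05 in 4 of 8 for H2-Aa, 4 of 8 for H2-Eb1 and 7 of 8 for Cd74, and for Cd74 in 3 over 1 in 1 of 8.

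**Figure D3:**
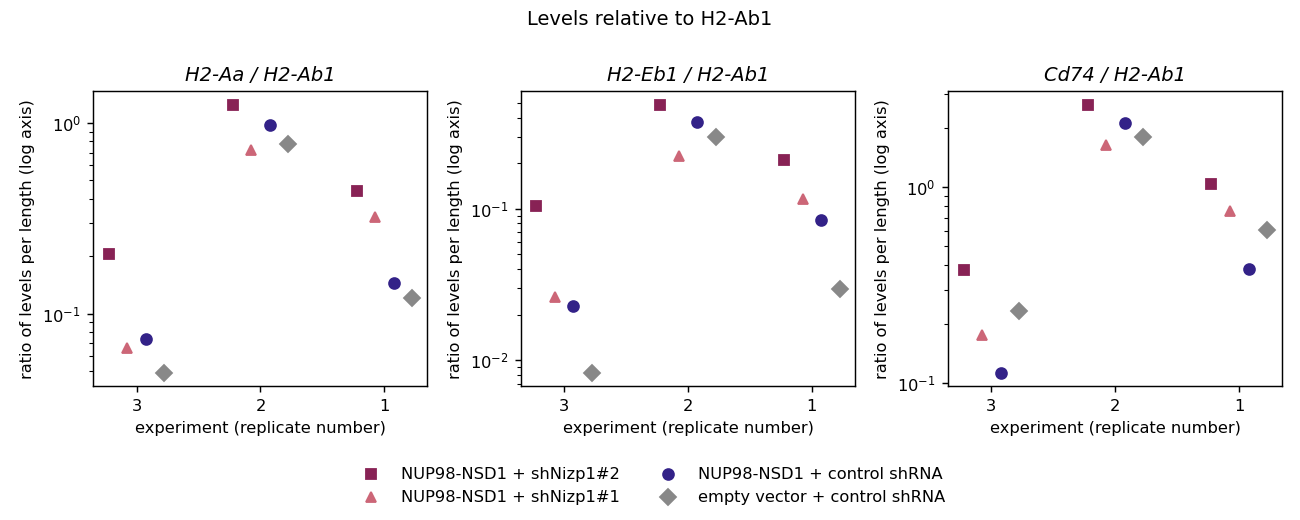
Ratio of the levels per length of H2-Aa, H2-Eb1 and Cd74 to that of H2-Ab1 in each library, on log axes, with experiments 3, 2 and 1 along the horizontal axis and symbols for the 4 groups. The 4 libraries of experiment 2 lie above all others in each panel, and shNizp1#2 is the highest in every experiment.

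The question of the series, what the fusion and the loss of Nizp1 do, was addressed with the group comparisons. Against the empty vector, NUP98-NSD1 with the control shRNA showed higher average levels of all 8 genes, and none was called. H2-Aa averaged 26.2 ± 37.9 CPM in the fusion libraries and 10.1 ± 13.0 CPM with the empty vector (SD, n = 3 each), and H2-Eb1 15.5 ± 21.2 and 5.33 ± 7.70 CPM. H2-Ab1 averaged 52.4 ± 23.0 and 30.9 ± 10.5 CPM, Cd74 72.8 ± 104 and 35.2 ± 34.3 CPM, H2-DMa 16.4 ± 4.02 and 11.1 ± 1.34 CPM, and Ciita 2.48 ± 1.01 and 1.10 ± 0.801 CPM. With 1 mean per group, edgeR called 0 of the 8 (0.00834% of tested genes) and 0 had an unadjusted p under 0.05 (2.67%). The libraries of the groups overlapped for all 8 genes in this comparison, where 7.41% of tested genes did not overlap.

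With the replicate number as a block, edgeR again called 0 of the 8 with the fusion (0.275% of tested genes), while 6 had an unadjusted p under 0.05 (11% of tested genes). The 6 include H2-DMb1, which passed the low-count filter only through the 3 libraries of experiment 2 that carry the fusion. It had to be high there, so the 6 and the higher averages of all 8 are a description. Nearest the threshold stood H2-Eb1 at a log2 fold change of 1.54 (SE 0.32, edgeR adjusted p = 0.0791) and H2-Aa at 1.22 (SE 0.27, adjusted p = 0.0982). DESeq2 with the block called both, at 1.58 and 1.18 (adjusted p = 0.0418 each). The share of all tested genes called by that fit is not given here, so these calls are a description. H2-Ab1 stood at 0.69 (SE 0.20, edgeR adjusted p = 0.262), Ciita at 1.20 (SE 0.49, adjusted p = 0.404), H2-DMa at 0.53 (SE 0.22, adjusted p = 0.413) and Cd74 at 0.56 (SE 0.34, adjusted p = 0.598). The median over the 8 genes was 1.14 (-0.00094 over all tested genes), a description as well, since it includes H2-DMb1. Within experiments, 5 of the 8, Ciita, H2-Aa, H2-Ab1, H2-Eb1 and H2-DMa, were higher with the fusion each time (15.9% of tested genes). Cd74 was higher in experiment 2 alone, and without that experiment its blocked value was -0.34.

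**Figure D4:**
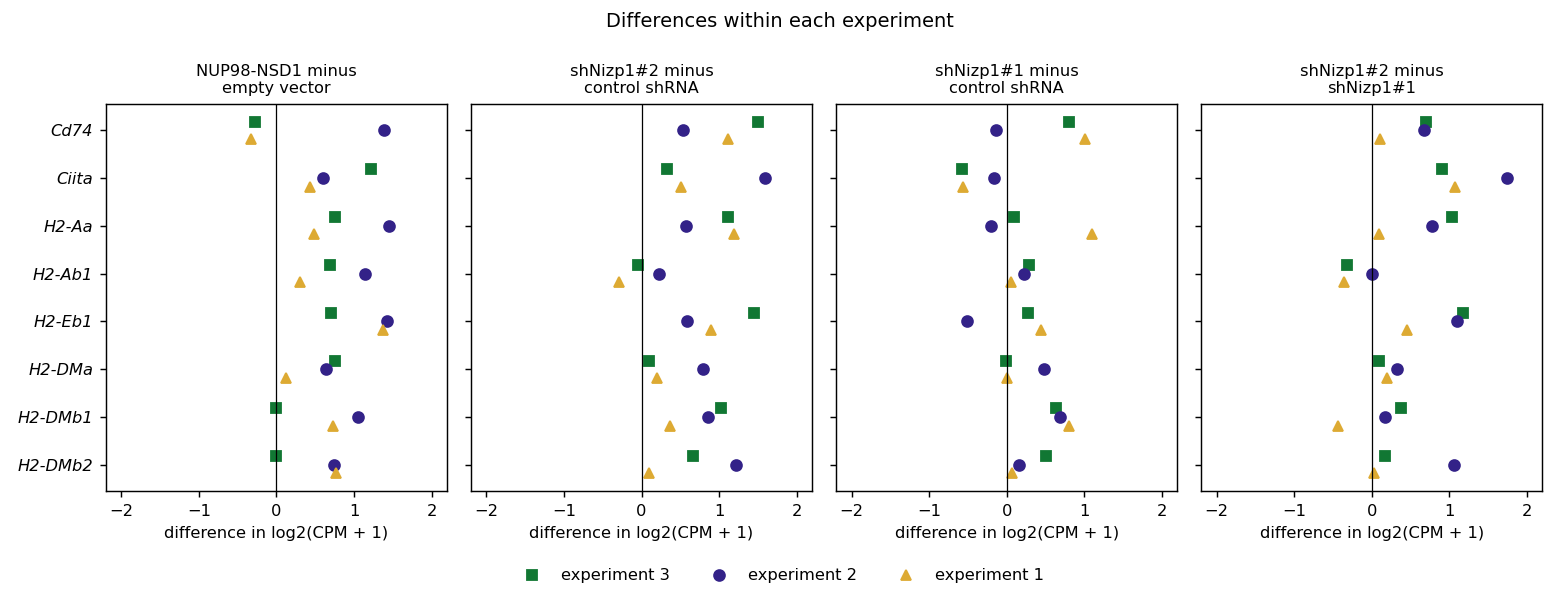
Differences in log2(CPM + 1) between libraries of the same experiment for the 8 genes, with 1 panel for each of the 4 comparisons of groups and symbols for the experiments. In the panel of shNizp1#2 minus control shRNA 7 genes lie right of 0 in every experiment, the exception being H2-Ab1.

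Targeting Nizp1 with shNizp1#2 in fusion cells left the means higher than with the control shRNA for all 8, and none was called. Ciita averaged 6.17 ± 5.64 CPM with shNizp1#2 and 2.48 ± 1.01 CPM with the control shRNA, and Cd74 114 ± 144 and 72.8 ± 104 CPM (SD, n = 3 each). H2-Aa averaged 42.3 ± 54.4 and 26.2 ± 37.9 CPM and H2-Ab1 53.5 ± 32.3 and 52.4 ± 23.0 CPM. The edgeR fit called 0 of 8 without the block (0.00834% of tested genes, and 0 with an unadjusted p under 0.05, against 2.38%) and 0 with it (0.217%). All 8 overlapped between these groups, where 6.52% of tested genes did not. With the block 6 had an unadjusted p under 0.05, against 11.1% of tested genes. The blocked log2 fold changes were 1.13 for Ciita (SE 0.38, edgeR adjusted p = 0.294), 0.90 for H2-Aa (SE 0.23, adjusted p = 0.145), 0.94 for H2-Eb1 (SE 0.27, adjusted p = 0.200) and 0.87 for Cd74 (SE 0.31, adjusted p = 0.366). H2-Ab1 stood at -0.01 (SE 0.19, adjusted p = 0.992). The 95% interval of its difference, taken from normal quantiles and so narrower than the edgeR test implies, ran between -0.38 and 0.36. Within experiments 7 of the 8 were higher with shNizp1#2 each time, against 20% of tested genes. Without experiment 2 the blocked fit called Cd74, at 1.36 (edgeR adjusted p = 0.0332), as the only one of the 8. The share of all tested genes called in that smaller fit is not given here, so this call is a description.

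With shNizp1#1 the differences lay on both sides of 0. Ciita averaged 1.68 ± 1.24 CPM with shNizp1#1 and 2.48 ± 1.01 CPM with the control shRNA, and H2-Eb1 12.4 ± 13.6 and 15.5 ± 21.2 CPM. Cd74 averaged 75.7 ± 87.3 and 72.8 ± 104 CPM, and H2-Ab1 59.8 ± 27.0 and 52.4 ± 23.0 CPM. Here edgeR called 0 of 8 both without the block (0% of tested genes) and with it (1.63%), with 0 at an unadjusted p under 0.05 in either fit (4% and 12.3% of tested genes). All 8 overlapped, where 8.38% of tested genes did not. The blocked log2 fold changes ran between -0.62 for Ciita (SE 0.46, edgeR adjusted p = 0.648) and 1.15 for H2-DMb1 (SE 0.57, adjusted p = 0.448). Ciita was lower in each of the 3 experiments (18.1% of tested genes), and H2-Ab1, H2-DMb1 and H2-DMb2 were higher each time (17.2%). The comparisons with the control shRNA share the fusion libraries, so the values of one are not independent of those of another.

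Set directly against shNizp1#1, shNizp1#2 gave more Ciita, at 6.17 ± 5.64 CPM with shNizp1#2 and 1.68 ± 1.24 CPM with shNizp1#1. It was the single member called between the shRNAs, by edgeR with the block (log2 fold change 1.75, SE 0.41, adjusted p = 0.0367, 2.37% of tested genes called) and higher in 3 of 3 experiments. Without the block 0 of 8 were called (0.00834% of tested genes), and Ciita stood at 1.90 (SE 0.76, edgeR adjusted p = 0.923). The blocked call was lost with each of the 6 libraries left out, at adjusted p between 0.0860 and 0.355. H2-Eb1 stood at 1.03 (SE 0.28, adjusted p = 0.0671) and H2-Aa at 0.65 (SE 0.23, adjusted p = 0.175), whereas H2-Ab1 stood at -0.21 (SE 0.19, adjusted p = 0.680). At an unadjusted p under 0.05 stood 1 of the 8, Ciita, without the block (5.08% of tested genes) and 3 with it (14.8%). Within experiments 6 of the 8 were higher with shNizp1#2 than with shNizp1#1 each time (22.2% of tested genes), and all 8 overlapped, where 9.2% of tested genes did not.

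The list of 9 regulators holds the RFX, NF-Y and CREB genes, whose products hold Ciita at the promoters, with Spi1 and Prdm1. Of these 8 were tested, and 0 of them were called in any blocked comparison of groups, where 0.217% to 2.37% of all tested genes were called. Rfx5, a subunit of RFX, lay between 38.5 and 60.7 CPM over all libraries, and the summed level of the list between 366 and 458 CPM. Between experiments 3 and 2, 3 of the 8 were lower, where 25.4% of all tested genes were called lower. They were Creb1 (-0.46, edgeR adjusted p = 0.00524), Spi1, the myeloid factor PU.1 (-0.38, adjusted p = 0.00759), and Rfx5 (-0.31, adjusted p = 0.0242). In 3 against 1 the count was 0 (15.9% of tested genes lower), and in 2 against 1 Creb1 alone was higher (0.34, edgeR adjusted p = 0.0498, 13.4% of tested genes higher). With 8 genes these counts are not read as a result about the regulators. The list medians were -0.28, -0.07 and 0.18 for 3 over 2, 3 over 1 and 2 over 1, against -4.12, -1.49 and 2.37 for the 8 class II genes and 0.02, -0.01 and -0.04 over all tested genes. The medians of the 8 include H2-DMb1 and H2-DMb2, which passed the filter only through experiment 2, so they are a description.

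In the list of other class II and costimulation genes 6 were tested. Of these, 5 were lower in experiment 3 than in 2 (25.4% of tested genes) and 4 were lower in 3 than in 1 (15.9%). In 2 against 1, 4 were higher (13.4%). The first and the last count include Cd40, a costimulatory receptor that passed the low-count filter only through experiment 2 and so had to be high there. It had 0 counts in experiment 3, 0 to 2.61 CPM in experiment 2 and at most 0.476 CPM in experiment 1. H2-Ea-ps, annotated in GENCODE as a polymorphic pseudogene of the I-E alpha chain (chromosome 17, 34341959 to 34344645), had 3.37, 81.0 and 7.34 CPM with shNizp1#2, 1.11, 40.2 and 10.2 CPM with shNizp1#1, 0.981, 35.0 and 1.97 CPM in the fusion libraries and 0, 12.7 and 3.18 CPM with the empty vector. Whether it is intact depends on the mouse strain. Its log2 fold change was -4.93 (SE 0.42, edgeR adjusted p = 1.26e-05) for experiment 3 over 2. Cd86, a costimulatory ligand of T cells, differed by -4.22 (adjusted p = 4.15e-06). H2-Oa, a chain of the DO inhibitor of DM, went its own way: it lay between 5.71 and 15.5 CPM and was called in no comparison of experiments or groups. H2-Eb2 had 0 counts in all libraries.

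Among 8 endosomal proteases and reductases, which cut the invariant chain and antigens, 6 were lower and 1 higher in experiment 3 than in 2. Over all tested genes 25.4% were lower and 2906 of 11994 higher. Ctss, the protease that removes the invariant chain in most antigen-presenting cells, differed by -3.62 (edgeR adjusted p = 0.00863) Ctsl by -3.25 (adjusted p = 0.0137) and Lgmn, an asparaginyl endopeptidase, by -2.98 (adjusted p = 0.00526), while Ifi30, a thiol reductase, was higher (0.58, adjusted p = 0.00627). In 3 over 1 Ctsd was lower (-0.40, adjusted p = 0.00257) and in 2 over 1 Ctsz was higher (0.57, adjusted p = 0.00687), each as the single call of the list. Over all tested genes 15.9% were lower in 3 over 1 and 13.4% higher in 2 over 1, so 1 of 8 is near those shares. Class I presentation genes moved by less: of 17 tested, 7 were lower and 2 higher in experiment 3 than in 2, 0 were called in 3 against 1 and 6 were higher in 2 than in 1. Over all tested genes 25.4% were lower and 2906 of 11994 higher in 3 than in 2. In 3 against 1, 1903 of 11994 were lower and 1235 higher, and 13.4% were higher in 2 than in 1. The median of the class I list was -0.32 for 3 over 2. Nlrc5, the class I counterpart of Ciita, stood in experiment 3 at 0.125 times its level in experiment 2 (SE 0.39 in log2, adjusted p = 4.01e-05). Next came Tapbp, a part of the peptide loading complex (log2 fold change -0.80, adjusted p = 0.00260), and B2m, the class I light chain (-0.78, adjusted p = 0.00224).

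Genes of interferon gamma signalling, which induces Ciita in many cell types, were lower in experiment 3 than in 2 for 13 of 14 tested, lower than in experiment 1 for 2 and higher in 2 than in 1 for 9. The shares over all tested genes were 25.4%, 15.9% and 13.4%, so the 2 of 14 for 3 against 1 is near its share. The first and the last count include Cxcl10, a chemokine that passed the filter only through experiment 2, with 0 to 0.147 CPM in experiment 3, 1.12 to 14.5 CPM in experiment 2 and 0 to 1.43 CPM in experiment 1. Gbp3, a GTPase, differed by -3.11 between experiments 3 and 2 (edgeR adjusted p = 0.00211) and Ifngr2, a receptor chain, by -2.71 (adjusted p = 1.90e-06). Ifng itself had 1 count in the 12 libraries and Cxcl9 had 0. In the comparisons of groups the list had 1 call, Irf2, which was higher with shNizp1#2 than with shNizp1#1 (0.76, edgeR adjusted p = 0.0103, blocked, 2.37% of tested genes called).

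Markers of other antigen-presenting cells moved with the experiments too. The 12 macrophage and monocyte markers summed to 91.4 to 1131 CPM in experiment 3, 2000 to 3556 CPM in experiment 2 and 799 to 1508 CPM in experiment 1. Of the 9 tested, 9 were lower in experiment 3 than in 2, 1 was lower in 3 than in 1 and 5 were higher in 2 than in 1. The shares over all tested genes were 25.4%, 15.9% and 13.4%, so the 1 of 9 for 3 against 1 does not exceed its share. Ly6c2, a marker of inflammatory monocytes, was at 0 to 0.196 CPM in experiment 3, 43.0 to 132 CPM in experiment 2 and 2.47 to 9.46 CPM in experiment 1. Csf1r, the receptor of macrophage colony-stimulating factor, was at 1.95 to 33.6, 97.3 to 235 and 46.0 to 61.9 CPM. The part of these cells in the class II levels was not tested.

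The sums of class II and macrophage levels went together within experiment 2 at both ends, where each was lowest with the empty vector and highest with shNizp1#2, but not in experiment 1. In experiment 2 the macrophage and monocyte markers summed to 3556 CPM with shNizp1#2, 3405 with shNizp1#1, 2778 in the fusion library and 2000 with the empty vector. The 8 class II genes there summed to 610 CPM with shNizp1#2, 399.9 with shNizp1#1, 414 in the fusion library and 166 with the empty vector. In experiment 3 the macrophage and monocyte markers summed to 501 CPM with shNizp1#2, 1131 with shNizp1#1, 241 in the fusion library and 91.4 with the empty vector. The 8 class II genes there summed to 77.6 CPM with shNizp1#2, 69.6 with shNizp1#1, 58.3 in the fusion library and 35.6 with the empty vector. In experiment 1 the empty vector had the highest macrophage sum (1508 CPM) and the lowest class II sum (85.1 CPM). The listed marker Lyz2 alone gave 1250 of these 1508 CPM, and 2658 of the 3556 CPM with shNizp1#2 in experiment 2. The other markers were divided in experiment 1. Csf1r, Cd68 and Ccr2 were also highest with the empty vector, at 61.9, 53.7 and 88.8 CPM. Ly6c2, Fcgr1 and Adgre1 were highest with shNizp1#2, at 9.46, 19.4 and 35.2 CPM.

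Of 12 dendritic cell markers 4 were tested. Irf8, a factor of dendritic cells and monocytes, differed by -4.01 for experiment 3 over 2 (edgeR adjusted p = 1.26e-04). Itgax did not follow it: its means were 12.9, 14.7 and 6.85 CPM in experiments 3, 2 and 1, so it was not lowest in experiment 3. Flt3, a receptor of dendritic cell precursors, passed the filter only through experiment 2 and gets no test here: it was at 0 to 0.434 CPM in experiment 3, 1.86 to 3.86 CPM in experiment 2 and 0 to 1.47 CPM in experiment 1. Clec10a, a lectin, went another way: it was higher with shNizp1#1 than with the control shRNA (2.02, adjusted p = 0.00857, blocked) and lower in experiment 2 than in 1 (-0.92, adjusted p = 0.0198). The 8 B cell markers summed to 0.392 to 3.25 CPM, and Ms4a1, Blk and Fcmr had 0 counts. Of the 8 T and NK cell markers, Cd3g and Cd8a had 0 counts, while Ncr1 had 249 counts and Nkg7 106. Ncr1 lay between 2.39 and 5.29 CPM. Nkg7 passed the filter only through experiment 2 and gets no test here. It was at 0 to 0.833 CPM in experiment 3, 2.32 to 5.41 CPM in experiment 2 and 0.714 to 1.59 CPM in experiment 1. Of 10 tested mast cell markers, 6 were lower and 2 higher in experiment 3 than in 2, 7 were lower in 3 than in 1 and 2 were lower in 2 than in 1, with medians of -0.26, -0.37 and 0.04. Over all tested genes 25.4% were lower and 2906 of 11994 higher in 3 than in 2. In 3 against 1 15.9% were lower, and in 2 against 1 1509 of 11994. Hdc, the histidine decarboxylase that makes histamine, averaged 34.2 CPM in experiment 3, 173 CPM in experiment 2 and 157 CPM in experiment 1 (3 over 2, -2.33, edgeR adjusted p = 7.92e-09). Tpsb2, a mast cell tryptase, averaged 731, 3215 and 2064 CPM (-2.25, adjusted p = 7.30e-04). The part of these differences in the class II levels was not tested.

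**Figure D5:**
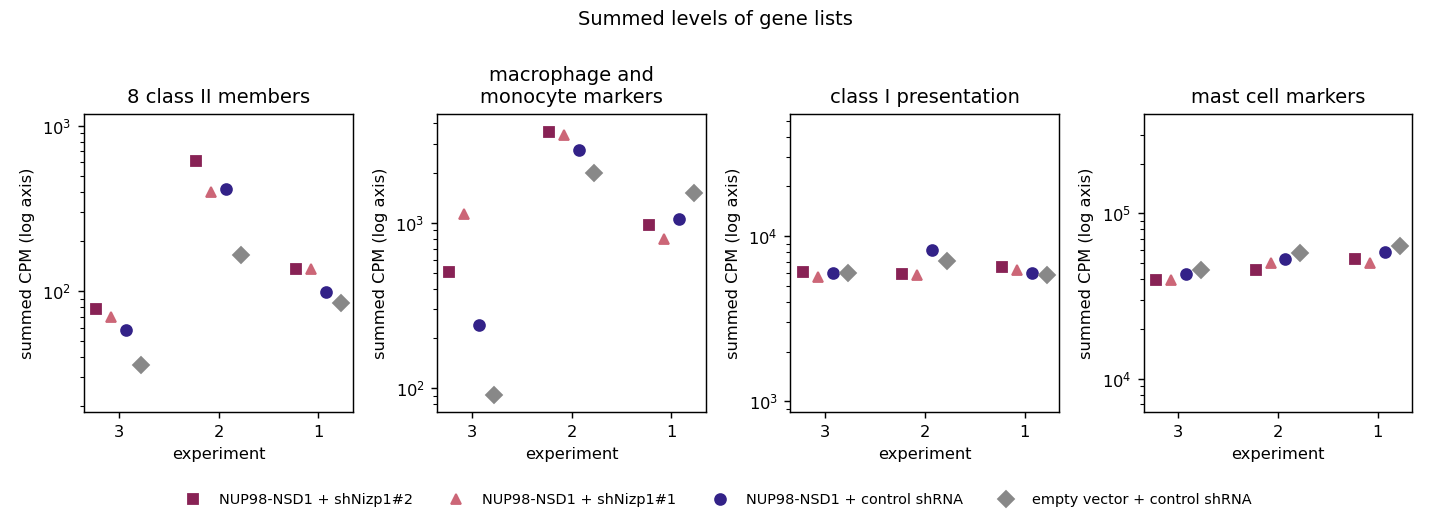
Summed CPM of the 8 class II genes, of macrophage and monocyte markers, of class I presentation genes and of mast cell markers in each library, on log axes, with experiments 3, 2 and 1 along the horizontal axis. The class II sum runs between 35.6 and 610 CPM and the macrophage sum between 91.4 and 3556 CPM, both highest in experiment 2, while the class I sum runs between 5665 and 8276 CPM and the mast cell sum between 39397 and 63314 CPM.

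The members also varied with each other across libraries. Over the 12 libraries the 28 pairs of members had Pearson correlations of log2(CPM + 1) between 0.574 (Cd74 with H2-DMa) and 0.990 (H2-Aa with H2-Eb1), with a median of 0.862. Ciita correlated at 0.630 with Cd74 and 0.641 with H2-Ab1. With the mean of each experiment taken away, the pairs lay between 0.508 and 0.961 with a median of 0.787. The libraries share experiments and groups, so these values describe the libraries and carry no test.

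Outside the members, the 10 genes most like their mean profile were sought among 9735 tested genes of at least 5 CPM. Over the 12 libraries they were Dmxl1 (r = 0.974), Tmem176b, St8sia4, Btg2, Med13, Mxd1, Tifa, Irf5, Clec4a1 and Unc93b1 (r = 0.949). Btg2, an antiproliferative gene, averaged 3.77 CPM in experiment 3, 87.9 CPM in experiment 2 and 12.3 CPM in experiment 1. Clec4a1, a lectin receptor, averaged 0.547, 20.8 and 2.65 CPM, whereas Dmxl1 varied by less, at 44.4, 74.1 and 48.7 CPM. After subtraction of the experiment means a different 10 led: Tnip3 (r = 0.940), Rap1a, Wasl, Arhgef3, Ppm1e, Afdn, Tbl1xr1, Zswim7, Lats2 and Slc25a28 (r = 0.908), none of which is in the first list.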

How the data were processed

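The deposited file holds whole-number counts of reads per gene for 12 libraries of poly(A) RNA (stranded kit, single reads of 75 nt, per the labels' protocols). The submitters' processing notes name Trimmomatic 0.32, STAR 2.5.3a, featureCounts and the build mm10. No source used here gives the strand setting or the annotation release. The authors' file also holds exon lengths per gene, a value of another kind (other), from which RPKM was computed.

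All 12 libraries entered 1 fit with a mean per group, using the quasi-likelihood test of edgeR 4.0.16 in R 4.3.3 after a low-count filter on the groups (11994 genes of 55376) and TMM scaling. P-values were adjusted by Benjamini-Hochberg over all tested genes, with a threshold of 0.05, and each SE is the log2 fold change over the root of F. A second fit added the replicate number as a block, and the contrasts between experiments come from it. As a pairing check, residuals of same-numbered libraries correlated positively in each of 18 pairs (r 0.22 to 0.88), while the other 36 pairs had a median r of -0.20, so the numbers pair the samples. The pairing rests on these correlations and on the series' mention of 3 experiments, since no label ties a number to an experiment. P-values measure only the spread between these libraries. The fits were also run on counts simulated from the blocked edgeR fit itself. That run checks the code and not the pairing, and its outcome is not given here.

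The members and the gene lists were chosen with earlier results of these data known. Named by rule were all 8 members, up to 3 genes of each list per comparison (those called with the largest change, otherwise the most highly expressed), and the 10 genes most correlated with the members. H2-Oa, Ifi30, Rfx5, Clec10a and list genes at 0 were also named after their values were seen. Alternatives were RLE and upper-quartile scaling, no low-count filter, DESeq2 1.42.0, limma-voom (limma 3.58.1), fits of the compared groups or of the number alone, and omission of libraries or experiments. A filter on the replicate number and the leave-one-out ratios were added after the data were seen. GENCODE M21 of the same build gave overlaps.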

Additional observations from a re-analysis of the deposited data

Results flagged for a closer look

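Within an experiment, each gene's 4 libraries, 1 per group, were searched for a library far from the others (gap over range above Dixon's 95% critical value). Of 24 sets examined 3 gave one, and chance alone gives about 1 in 20 (5%).

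Ciita was at 12.7 CPM with shNizp1#2 in experiment 2, and the next library of that experiment, a fusion library, was at 3.54 CPM. H2-DMa was at 9.77 CPM with the empty vector in experiment 3, where the nearest library had 17.2 CPM. H2-DMb2 was at 0.353 CPM with the empty vector in experiment 1, where the nearest had 1.31 CPM, both a handful of counts. For Ciita, shNizp1#2 minus shNizp1#1 was 1.75 in log2 with the replicate block (edgeR adjusted p = 0.0367, higher in 3 of 3 experiments). Without the block it was 1.90 (adjusted p = 0.923), and the blocked call was lost with each of the 6 libraries left out, at adjusted p between 0.0860 and 0.355.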

How the results depend on the processing

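Between experiments the counts of called members, 8, 5 and 8 for 3 over 2, 3 over 1 and 2 over 1, were the same under RLE and upper-quartile scaling, no filter, DESeq2 and limma-voom. With the filter on the replicate number they were 7, 5 and 7, as H2-DMb1 was not tested. With the number as the only term they were 6, 1 and 6. With 1 library left out they were 6 to 8, 3 to 5 and 7 to 8. The 3 came without fusion replicate 1, fusion replicate 3 or shNizp1#2 replicate 3, where H2-Ab1 and H2-DMb2 were not called. The cause was not tested. The shares of all tested genes called in these alternative fits are not given here, so the counts are a description.

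Between groups the fit without the replicate block called 0 of 8 under every alternative. The replicate block gave 1 (Ciita) between the shRNAs, DESeq2 with the replicate block 2 (H2-Aa, H2-Eb1) with the fusion, and the block without experiment 2 gave 1 (Cd74) for shNizp1#2 over control. With the block and 1 library left out, 0 to 1 were called with the fusion: H2-Ab1 (1.03) without empty vector replicate 1, H2-Eb1 (2.18) without empty vector replicate 2 and H2-Aa (1.44) without fusion replicate 1. For DESeq2 with the block and for the omissions of an experiment or a library, the share of all tested genes called is not given here. Their calls are a description.

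Signs of uncalled log2 fold changes turned under some alternatives. For shNizp1#1 over control, H2-Aa stood at 0.25 with the replicate block, 0.31 by DESeq2 with it, 0.82 in the block without experiment 2 and 0.28 without experiment 3, and H2-Eb1 at 0.0098 by DESeq2 with the block and 0.46 in the block without experiment 2. For shNizp1#2 over control, H2-Ab1 stood at -0.011 with the block, -0.0089 by DESeq2 with it, -0.044 by limma-voom and -0.18 in the block without experiment 2. Cd74 stood at -0.34 with the fusion in the block without experiment 2, and H2-DMb1 at -0.076 between the shRNAs in the block without experiment 3.

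With 1 library left out, with or without the block, the ranges that crossed 0 were as follows. For the fusion over the empty vector they were -1.44 to 2.15 (Cd74), -1.19 to 3.28 (H2-Aa), -0.65 to 4.03 (H2-Eb1), -0.70 to 6.30 (H2-DMb1) and -1.001 to 3.72 (H2-DMb2). For shNizp1#1 over control they were -1.49 to 2.53 (Cd74), -1.62 to 2.56 (H2-Aa), -0.23 to 0.57 (H2-Ab1), -1.77 to 1.87 (H2-Eb1), -0.16 to 0.48 (H2-DMa), -0.60 to 3.33 (H2-DMb1) and -1.64 to 2.23 (H2-DMb2). For shNizp1#2 over control they were -1.26 to 3.14 (Cd74), -1.27 to 3.28 (H2-Aa), -0.59 to 0.42 (H2-Ab1), -0.996 to 2.94 (H2-Eb1), -0.022 to 0.72 (H2-DMa), -0.73 to 3.50 (H2-DMb1) and -1.43 to 3.29 (H2-DMb2). For shNizp1#2 over shNizp1#1 they were -1.32 to 2.13 (Cd74), -1.26 to 2.31 (H2-Aa), -0.79 to 0.26 (H2-Ab1), -0.66 to 2.47 (H2-Eb1), -0.26 to 0.62 (H2-DMa), -1.66 to 1.68 (H2-DMb1) and -1.62 to 2.86 (H2-DMb2). H2-DMb1, H2-DMb2 and Ciita rest on few counts outside experiment 2, which limits what can be seen for them.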
